A study of Homo sapiens with 2 samples.

Results

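The circRNAs described here come from 10 host genes that copy or repair DNA: POLD1, DNA2, LIG1, MCM3, MCM8, BRCA1, BRIP1, ATM, FANCI and FANCL. They were taken as the rows of the deposited table whose host field names exactly 1 of these genes, which gave 15 of the 1485 circRNAs in the table and 10 of its 1073 distinct single host names. A circRNA is a closed RNA ring made when the end of an exon is spliced back onto the start of the same or an earlier exon, and it is counted by the reads that cross that back-splice junction. The cells were SW620, an established human colorectal cancer line grown from a lymph node metastasis. In 1 group they received HD-SB (Hedyotis diffusa-Sculellaria barbata), a pair of medicinal herbs, at 1 mg/mL for 24 h, and the other group was labelled Control with no treatment described. Each group was 1 library of total RNA depleted of ribosomal RNA and digested with RNase R, which removes linear RNA. Values therefore come without a replicate error, no test was made, and whatever differs between the 2 libraries cannot be told apart from the variation between cultures.

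DNA polymerase delta, whose catalytic subunit is POLD1, makes the lagging strand at the replication fork, the MCM helicase (of which MCM3 is a subunit) unwinds the template, and DNA2 and LIG1 trim and seal the short fragments in which that strand is made. ATM is the kinase that signals double-strand breaks. BRCA1 and BRIP1, a helicase that binds it, act in repair by homologous recombination, MCM8 is an MCM-related helicase of the same process, and FANCL and FANCI belong to the Fanconi anaemia pathway, in which the ubiquitin ligase FANCL modifies the FANCI and FANCD2 pair at crosslinked DNA. These genes act when cells copy their DNA or meet damage to it. A circRNA of such a gene is a splicing product and its level is not a measure of the protein or of the linear mRNA.

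The lengths of the circRNAs matched annotated exons. For each circRNA the span (end minus start plus 1) was compared with the distance from the start of an exon to the end of the same or a later exon of the host in GENCODE 29. All 15 spans equalled such a distance to the base, against 1245 of 1312 circRNAs in the table (94.9%) whose host could be looked up. Only lengths were compared, because none of the 15 lay inside its host gene when the deposited positions were read in GRCh38. That is the build named in the submitters' processing notes. Of the 1312 circRNAs, 259 (19.7%) lay inside their host gene when read in this way. Positions are therefore printed as deposited, with a build that was not established. Of the 15, 14 had a single possible exon pair and MCM3 had 2. In each of POLD1, LIG1, BRIP1 and ATM, the hosts with several circRNAs, the deposited start and the matched exon start differed by the same number of bases for every circRNA. Exon lengths and sequences below assume that every annotated exon between the ends is kept and every intron removed, which the junction reads do not show.

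The following sequences show the junctions on which the comparison within POLD1, ATM and BRIP1 turns, with those of DNA2 and FANCL, the most abundant of the hosts that gave 1 circRNA. Each is the RNA strand, written as DNA 5′ to 3′ and read from GENCODE 29 transcripts (GRCh38), with the last 20 bases of the last exon in lower case and the first 20 bases of the first exon in capitals.
POLD1 hsa_circ_0052012 (chr19:50902108-50902741 as deposited, plus strand), exon 3 to exon 2: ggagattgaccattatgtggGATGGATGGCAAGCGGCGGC
POLD1 hsa_circ_0052011 (chr19:50902105-50902741, plus strand), exon 3 to exon 2: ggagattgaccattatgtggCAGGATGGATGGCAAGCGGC
ATM hsa_circ_0024230 (chr11:108186550-108188248, plus strand), exon 43 to exon 41: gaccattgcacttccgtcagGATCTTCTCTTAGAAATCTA
ATM hsa_circ_0024231 (chr11:108186550-108206688, plus strand), exon 56 to exon 41: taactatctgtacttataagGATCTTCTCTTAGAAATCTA
BRIP1 hsa_circ_0006968 (chr17:59853762-59857762, minus strand), exon 14 to exon 13: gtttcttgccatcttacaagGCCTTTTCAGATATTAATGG
BRIP1 hsa_circ_0000794 (chr17:59821793-59857762, minus strand), exon 15 to exon 13: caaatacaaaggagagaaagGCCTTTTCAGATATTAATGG
DNA2 hsa_circ_0006151 (chr10:70227880-70229920, minus strand), exon 3 to exon 2: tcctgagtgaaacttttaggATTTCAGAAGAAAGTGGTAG
FANCL hsa_circ_0001009 (chr2:58449077-58459247, minus strand), exon 5 to exon 2: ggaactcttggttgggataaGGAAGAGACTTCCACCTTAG

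The deposited values are reads per 1000000 listed back-splice reads of a library (CPM), and all listed values are whole multiples of 1 step per library. Taking the largest step that fits as 1 read gave 11570 reads on 1475 circRNAs in HD-SB and 91 reads on 32 circRNAs in the control, with 2 reads as the smallest listed value in both. Read counts and their intervals rest on this conversion, since the deposited values are not counts. The intervals given (95%, Clopper-Pearson) account for counting error alone, and reads copied by amplification are not separate molecules. Junction reads are counted at 1 site per circle whatever its length, so they are compared between genes without length scaling. Whether the length of a circle affected its recovery was not tested. Of the marker lists for the labelled cell type, 3 of 15 colorectal epithelium genes hosted circRNAs (EPCAM, EPHB2 and VIL1, 54 HD-SB reads and 0 control reads). In the other lists 0 of 8 fibroblast, 0 of 5 endothelial and 1 of 9 leukocyte genes did (PTPN22, 4 HD-SB reads). The lists were short, and hosts outside them, such as LCK with 9 HD-SB reads and SYK with 7, were not counted.

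The replication hosts POLD1, DNA2, LIG1 and MCM3 gave 6 circRNAs and 134 HD-SB reads, which is 1.16% of the library (0.971 to 1.37) and 74.9% of the reads of all 15 circRNAs. POLD1 led with hsa_circ_0052012 at 92 HD-SB reads, or 7952 CPM, and no listed control read. Those 92 reads were 51.4% of the 179 reads of the 15 circRNAs (43.8 to 58.9). It held rank 11 among the circRNAs of the HD-SB library. The circRNAs of LRP6 with 97 reads and PVT1 with 93 stood next above it, and those of SMARCA5 with 88 and LRP5 with 84 stood next below.

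**Figure D1:**
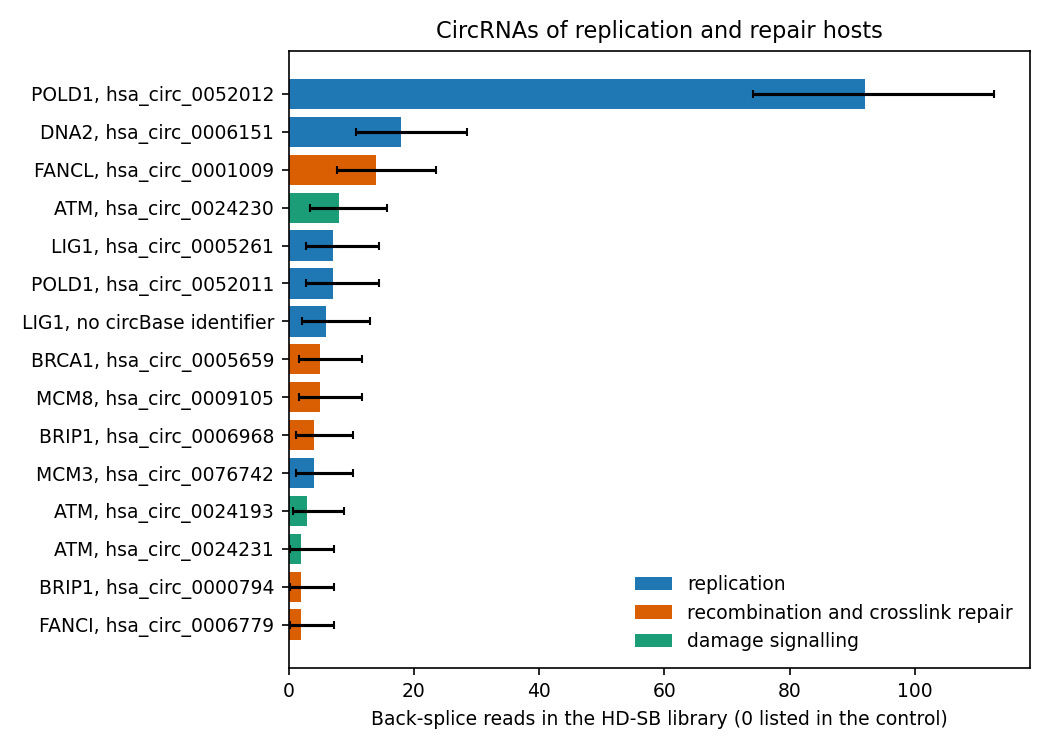
Back-splice reads in the HD-SB library for the 15 circRNAs (horizontal axis, linear from 0), with host and circBase identifier on the vertical axis, bars coloured by the role of the host and whiskers giving the 95% Clopper-Pearson interval. The POLD1 circRNA hsa_circ_0052012 has 92 reads, DNA2 has 18, FANCL has 14, and the other 12 have 2 to 8 with intervals that overlap one another.

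hsa_circ_0052012 joined the end of exon 3 of POLD1 to the start of exon 2, in a transcript of 27 exons. Its span was 634 bp and its exons add up to 317 nt, so the remaining 317 bp are the single intron between them. Exon 2 holds the start codon of POLD1, 1 base after the back-splice, so the circle holds 316 coding bases, or 9.52% of the coding sequence. The first 300 bases of the ring, opened at the back-splice and with the start codon in capitals, show how little precedes that codon. The remaining bases are the end of exon 3, printed above in the junction.
POLD1 hsa_circ_0052012, exon 2 and most of exon 3: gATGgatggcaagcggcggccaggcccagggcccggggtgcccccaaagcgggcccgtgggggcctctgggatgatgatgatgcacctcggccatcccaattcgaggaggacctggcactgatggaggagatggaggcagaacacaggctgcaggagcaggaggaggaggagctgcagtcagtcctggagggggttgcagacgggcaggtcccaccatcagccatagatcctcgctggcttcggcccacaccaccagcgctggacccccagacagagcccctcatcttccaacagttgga
All bases from that start codon to the end of the ring are coding, so the frame had to cross the back-splice. Read on around the ring, it met a stop after 145 codons. This is a property of the annotated sequence, and translation was not measured.

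The other POLD1 circRNA, hsa_circ_0052011, had 7 HD-SB reads and no listed control read. It ended at the same donor of exon 3 but began 3 bp further upstream, and the 3 extra bases were CAG, as the junctions above show, with the rest of the ring identical. GENCODE 29 holds both starts of exon 2, the shorter in 8 transcripts that match hsa_circ_0052012 and the longer in 1 transcript, POLD1-210. Such pairs of splice acceptors 3 bases apart are known in many genes. The inner start carried 92 of the 99 POLD1 reads, or 92.9% (86.0 to 97.1).

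Pairs of this kind were few in the table. Among 455 pairs of circRNAs from 1 host, 165 shared an end (36.3%), with a median distance of 9936 bp between the ends that differed, and in 6 pairs that distance was 3 bp. The 5 of these with a known strand (POLD1, ANKRD11, FKBP8, TCFL5 and WDR37) all differed at the acceptor. The more abundant circle held 92.9% of the pair's HD-SB reads in POLD1, 88.9% in FKBP8 (32 and 4 reads), 73.5% in ANKRD11 (25 and 9 reads), 72.7% in WDR37 (8 and 3) and 60.0% in TCFL5 (3 and 2). In POLD1 and ANKRD11 it began at the inner acceptor, and in FKBP8, WDR37 and TCFL5 at the outer.

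DNA2, a nuclease and helicase, gave 1 circRNA, hsa_circ_0006151, with 18 HD-SB reads (1556 CPM) and no listed control read. It enclosed exons 2 and 3 of 21, 367 nt of coding sequence within a span of 2041 bp. LIG1, the ligase that seals Okazaki fragments, gave 2 circRNAs that share no exon. hsa_circ_0005261 (chr19:48653020-48654596) had 7 HD-SB reads and enclosed exons 7 to 9 of 28 (310 nt). The other (chr19:48660271-48665608) had 6 reads, enclosed exons 3 to 5 (353 nt) and was the only one of the 15 with no circBase identifier. The LIG1 reads were split 53.8% to the first (25.1 to 80.8), an interval that includes an equal split.

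MCM3 gave hsa_circ_0076742 (chr6:52132663-52134024) with 4 HD-SB reads. Its span of 1362 bp equalled 2 exon distances of the 17-exon gene, exons 13 to 14 (245 nt) and exons 2 to 4 (453 nt). The first placed its start at the same distance from the deposited position as the nearest other matched host on the chromosome, FBXO9, and the second did not. That distance changes along a chromosome, and the ATM and MCM8 circRNAs also differed in it from their nearest neighbours, so the assignment to exons 13 and 14 is not settled. It is the pair used in the counts below.

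ATM was the host with the most circRNAs, 3, with 8, 3 and 2 HD-SB reads and no listed control read. hsa_circ_0024230 with 8 reads enclosed exons 41 to 43 of 63 (341 nt), and hsa_circ_0024231 with 2 reads began at the same acceptor and ran to exon 56. The latter enclosed 16 exons and 2262 nt, the longest ring of the 15 and 24.7% of the ATM coding sequence. hsa_circ_0024193 (chr11:108098322-108100050) had 3 reads and came from exons 2 to 4 at the other end of the gene, with 30 bases of 5′ untranslated sequence before the start codon. Of the 13 ATM reads, 61.5% fell on the first circle (31.6 to 86.1), so counting error does not settle which is the major ring.

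The hosts of recombination and crosslink repair gave 6 circRNAs and 32 HD-SB reads, 0.277% of the library (0.189 to 0.390). FANCL led them with 14 reads on hsa_circ_0001009, exons 2 to 5 of 14, which at 278 nt carried 24.7% of the FANCL coding sequence. BRCA1 gave hsa_circ_0005659 (chr17:41199660-41209152) with 5 reads, exons 20 to 23 of 24 in the transcript BRCA1-210, all coding, at 274 nt, or 200 nt in a matching transcript that lacks 1 of these exons. MCM8 gave hsa_circ_0009105 (chr20:5939174-5944005) with 5 reads, exons 7 and 8 of 19 (285 nt). These counts of 5 have intervals that reach from 0.0140% to 0.101% of the library.

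BRIP1 gave a pair that, like that of ATM, shared an acceptor, here at exon 13 of 20. hsa_circ_0006968 had 4 HD-SB reads and ended at exon 14 (303 nt), and hsa_circ_0000794 had 2 reads and ended at exon 15 (463 nt). The added intron makes the second span 35970 bp, the longest of the 15, against 4001 bp for the first. FANCI gave hsa_circ_0006779 (chr15:89790860-89804074) with 2 HD-SB reads, the smallest listed value, on exons 2 to 4 of 37 (307 nt) with the start codon inside.

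**Figure D2:**
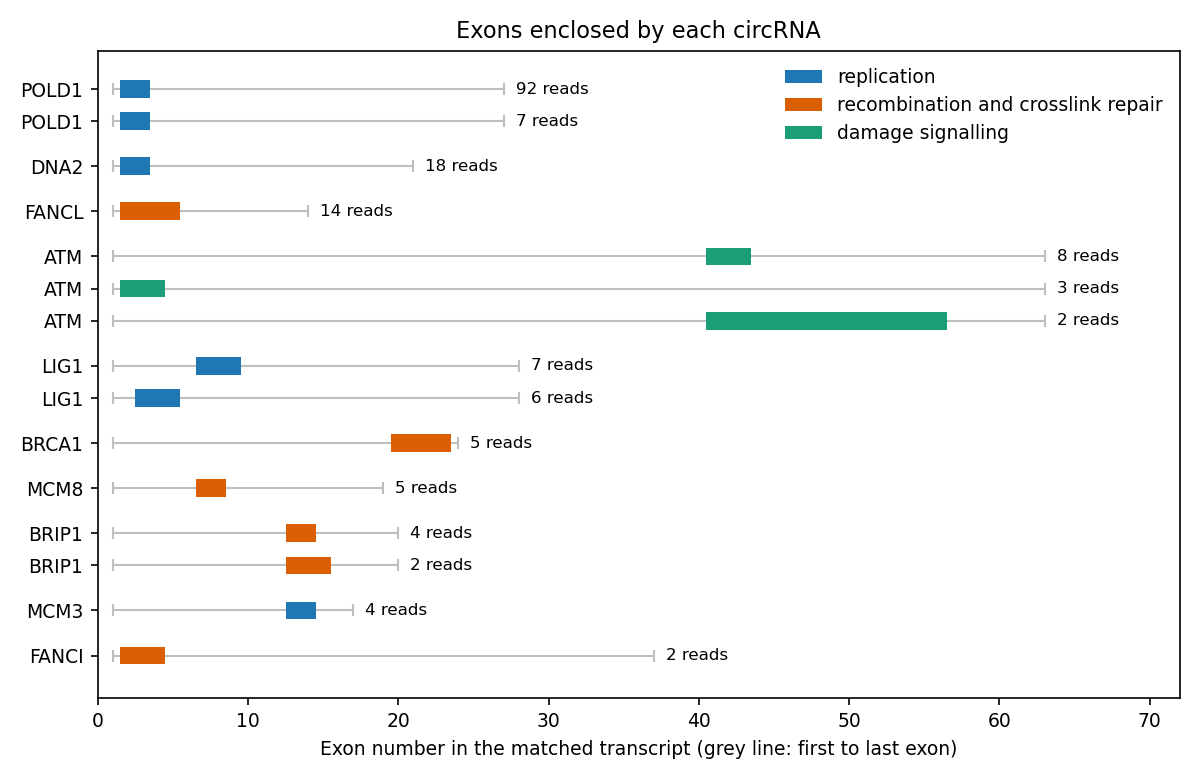
Exons enclosed by each of the 15 circRNAs (coloured bars, by the role of the host) along the exon number of the matched transcript (horizontal axis), with a grey line from the first to the last exon and HD-SB reads at the right. Rings of POLD1, DNA2, FANCL and FANCI and 1 ring of ATM begin at exon 2, the BRCA1 ring ends next to the last exon, and MCM3 is drawn at exons 13 and 14, 1 of its 2 possible places.

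All 15 circRNAs were listed in HD-SB and none in the control. That is close to the table as a whole, in which 1453 of 1485 circRNAs (97.8%) were listed in HD-SB and not in the control, and a share near this background is not a result about these hosts. At an equal share, 91 control reads would hold 1.41 reads of the 15 circRNAs together and 0.724 of hsa_circ_0052012. Both are below 2 reads, the smallest listed value. If every circRNA with 2 or more reads was listed, an unlisted control value means 0 or 1 read. For 1 circRNA that allows a share of up to 3.97% or 5.97% of 91 reads. The filters of the circRNA caller are not given, so an unlisted circRNA could have had more reads. The highest HD-SB share of the 15 was 0.795% (0.641 to 0.974). A lower share in the control was therefore not detectable at this depth for any of the 10 hosts. The smallest listed control value was 2 reads, 2.20% of that library, and none of the 15 was listed.

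A size rule was also applied. On the scale log2(CPM + 172.861), with a mean of both libraries of at least 216 CPM, 9 of the 15 circRNAs passed the filter and all 9 had an HD-SB value at least 2-fold above the control, against 765 of 797 in the table (96.0%). The median log2 ratio was 2.17 for the 9 and 2.17 for the 797. No member had a control value, so a member passed this filter only with 5 or more HD-SB reads, and 5 reads already give 3.5-fold on this scale. The count of 9 of 9 was thus fixed by the filter and the pseudocount and shows nothing about these hosts. When 0.5 read was added to each library instead, which the control depth makes much larger in CPM, 0 of the 9 were higher by that rule, against 4 of 797 in the table (0.502%), and 8 were at least 2-fold lower, against 772 of 797 (96.9%).

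Within the HD-SB library the 15 circRNAs had a median of 5 reads, as did all 1475. Of the 15, 8 had 5 reads or fewer, against 863 of 1475 (58.5%), and 3 had 10 or more, against 251 (17.0%). The 15 were 1.02% of the circRNAs of this library and held 1.55% of its reads (1.33 to 1.79). Without hsa_circ_0052012 the other 14 held 87 reads, or 0.752%, so the excess over the share by number came from that circRNA.

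**Figure D3:**
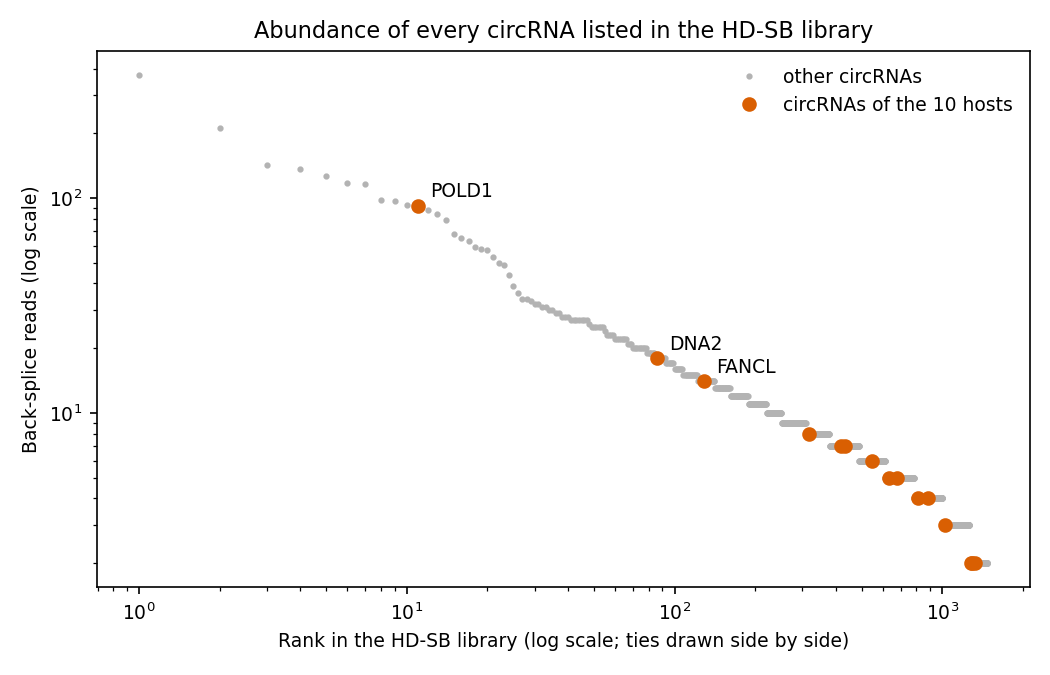
Back-splice reads (vertical axis, log scale) against rank in the HD-SB library (horizontal axis, log scale) for all 1475 listed circRNAs, grey, with the 15 of the replication and repair hosts in orange. POLD1 hsa_circ_0052012 with 92 reads stands near the top of the curve, DNA2 with 18 and FANCL with 14 follow, and the other 12 lie along the lower part down to 2 reads.

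In exon structure the 15 circles were mostly short. They had 2 to 16 exons with a median of 3, as in the 1245 matched circles of the table, and 14 of 15 had under 500 nt of exon, against 79.2% of matched circles. Their exon lengths had a median of 317 nt (245 to 2262), against 371 nt. Their spans had a median of 4001 bp (634 to 35970), against 4111 bp over all 1485 circRNAs, and 4 of 15 reached 10000 bp, against 29.2%. Weighted by reads, the median span of the 15 was that of the POLD1 circle, 634 bp. The exon length was a multiple of 3 in 3 of 15 rings, against 37.2% of matched circles.

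**Figure D4:**
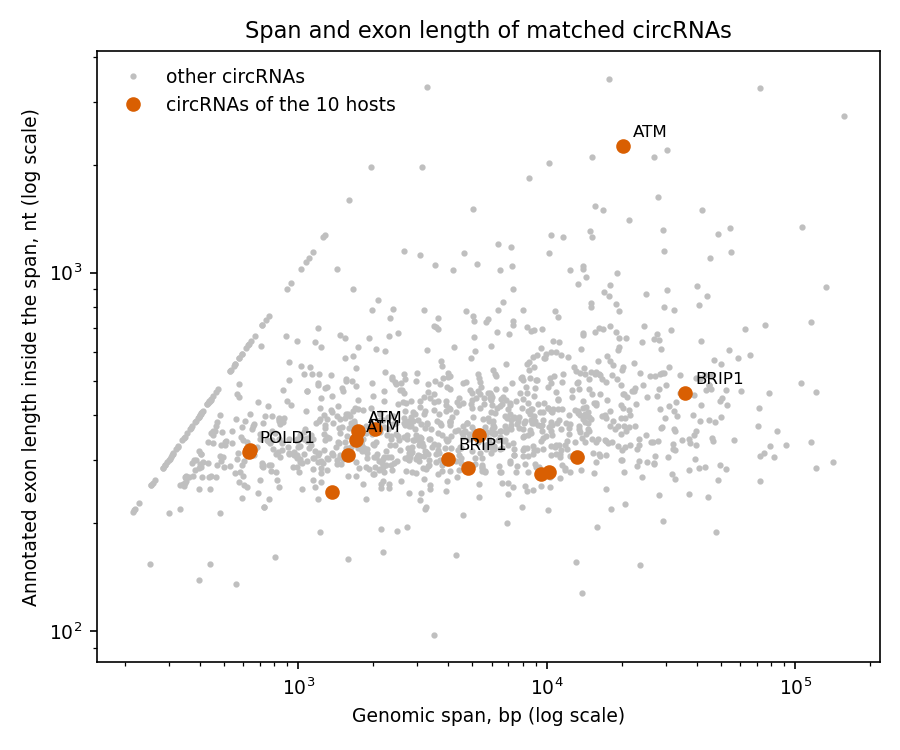
Annotated exon length inside the span (vertical axis, nt, log scale) against genomic span (horizontal axis, bp, log scale) for the 1245 circRNAs whose span equals an exon distance, with the 15 of the replication and repair hosts in orange. Apart from the ATM ring of 2262 nt, the orange points stay between 245 and 463 nt over spans of 634 to 35970 bp.

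None of the 15 used the first or the last exon of its transcript, which lack a splice acceptor or a donor, and 4 and 5 of the 1245 matched circles did. The first exon of the ring was exon 2 in 6 of 15 (POLD1 with both circles, DNA2, FANCL, FANCI and ATM hsa_circ_0024193), against 403 of 1245 (32.4%). These 6 held 136 of the 179 reads (76.0%), of which POLD1 gave 99, and in the table such circles held 42.5% of the reads of matched circles. Without POLD1 the values were 37 of 80 reads (46.3%) and 41.9% in the table. The start codon lay inside 4 of 15 rings (POLD1 with both circles, ATM and FANCI), against 15.7%. Those 4 held 104 of the 179 reads (58.1%), against 21.6% of the reads of matched circles in the table. POLD1 had 99 of the 104. The ATM and FANCI rings had 3 and 2 of the 80 reads outside POLD1. All 4 rings are annotated as coding from the start codon to the end of the ring, so the frame had to cross the back-splice. It met a stop after 125 to 146 codons. Frames of the other matched rings were not read.

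The introns beside the circularised exons were shorter at the median than in the table. Upstream introns had a median of 3324 bp (438 to 14460) and downstream introns of 2432 bp (741 to 31809), against 7355 and 6654 bp for matched circles of the table. The POLD1 circles had the longest upstream intron of the 15, 14460 bp for hsa_circ_0052012, and a downstream intron of 2293 bp. The BRIP1 pair had the shortest, 438 bp, upstream, and the ring that stopped at exon 14 was followed by an intron of 31809 bp, the longest of the 15 downstream. FANCL was the only host with both introns above the medians of the table, at 9105 and 17715 bp. The exons had a median GC content of 44.0%, against 49.8% for matched circles, with POLD1 at 64.0% and LIG1 at 60.0% and 59.5% at the high end and ATM hsa_circ_0024193 at 36.3% at the low end.

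**Figure D5:**
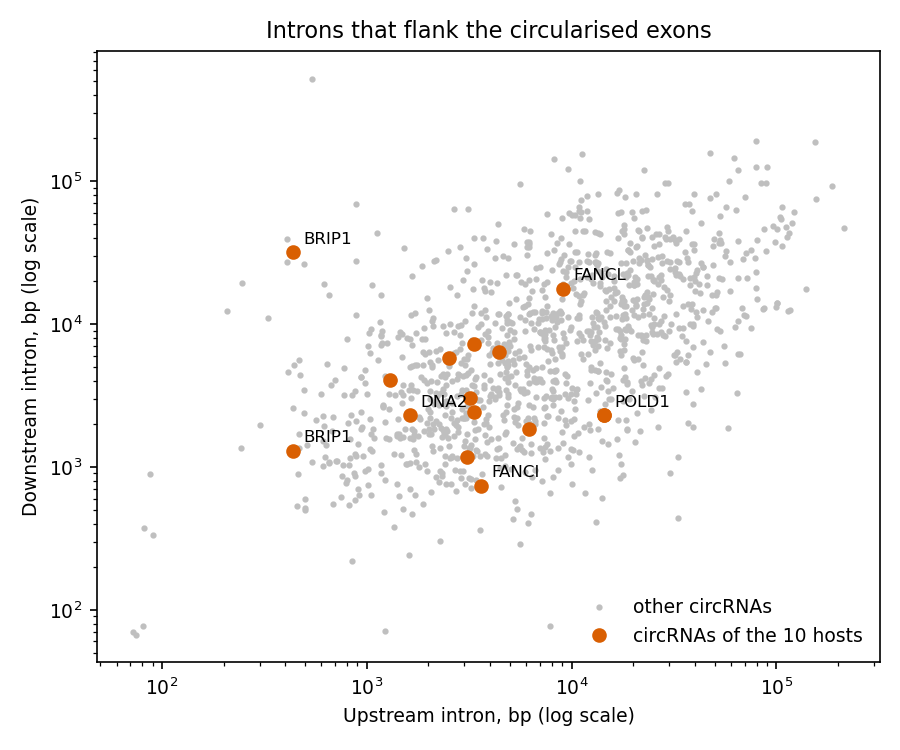
Length of the downstream intron (vertical axis, bp, log scale) against that of the upstream intron (horizontal axis, bp, log scale) for matched circRNAs, with those of the replication and repair hosts in orange. The BRIP1 pair shares an upstream intron of 438 bp and differs downstream (1297 and 31809 bp), and the POLD1 circles, drawn on top of each other, combine a long upstream intron with a short downstream one.

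Of the 10 hosts, 4 gave 2 or more circRNAs, against 204 of 1073 single host names (19.0%), and the hosts were chosen with these data in view. Of their 6 within-host pairs, 3 shared an end, those of POLD1, ATM and BRIP1, while the LIG1 circles and the exon 2 circle of ATM shared none. In POLD1 the donor was shared, and in ATM and BRIP1 the acceptor. A circBase identifier was given for 14 of 15, against 75.6% of the table.

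The title of the series names hsa-miR-204-5p as the microRNA bound by a circRNA of another gene, so the 15 rings were searched for its seed site. The mature sequence, from RefSeq (GRCh38.p14) with the seed, bases 2 to 8, in capitals, shows what was searched for.
hsa-miR-204-5p: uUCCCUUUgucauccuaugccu
The site is the reverse complement of the seed, AAAGGGA, and it was sought on the RNA strand, the back-splice included. It occurred in 0 of the 15 rings over 6786 bases, against 55 of the 1245 matched rings (4.42%), at 0.112 sites per 1000 bases. Among rings of 200 to 500 nt it was in 0 of 14, against 33 of 968 (3.41%). On the other strand the letters occurred in 0 of 15 and 2.41%. These letters alone were searched for, and binding was not measured.

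Other genes of the pathway were taken from lists of 195 replication and repair symbols, of which the 10 hosts are part. CircRNAs were listed for 33 of the 195, 41 in all with 311 HD-SB reads, 2.69% of the library (2.401 to 2.999). Beyond the 10 hosts, 23 genes gave 26 circRNAs and 132 reads, with a median of 4.5 reads per circRNA. By list, 2 of 12 replicative polymerase and primase symbols hosted a circRNA, and 5 of 29 for origin licensing and the helicase. The count was 6 of 17 for the clamp, its loader and fragment maturation, and 5 of 22 for damage signalling. It was 4 of 34 for homologous recombination and 5 of 22 for the Fanconi pathway. For mismatch, excision and end joining repair it was 4 of 44, and for translesion synthesis 2 of 15. MCM8 was counted here under origin licensing and BRIP1 under the Fanconi pathway. The denominators count symbols, and some genes stand under an older and a current symbol, such as H2AFX and H2AX. POLD1 alone gave 99 of the 105 reads of the polymerase list, with PRIM2, a primase subunit, giving the other 6.

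Of the listed genes outside the 10 hosts, 3 had at least 10 HD-SB reads. The lists do not hold every gene of replication and repair. Hosts outside them, such as UIMC1 with 13 HD-SB reads and CHAF1A with 11, were not counted. MSH3, which recognises insertion and deletion loops in mismatch repair, had 14 reads over 3 circRNAs, the most abundant at 9. RPA1, the large subunit of the single-strand binding complex, had 12 on hsa_circ_0000734, exons 2 to 5. RECQL4, a helicase of replication initiation, had 11 on hsa_circ_0007787. Each of these had fewer reads than POLD1 and DNA2, and no more than the 14 of FANCL. One gene of the lists was listed in the control, SLX4IP, a partner of the SLX4 nuclease scaffold, with 2 control and 4 HD-SB reads.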

How the data were processed

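The table gives 1 value per circRNA for each of 2 libraries of SW620 cells. Libraries were depleted of ribosomal RNA and treated with RNase R, per the labels' protocols. FastQC, HISAT2 2.1.0 and GRCh38 are named, without a role, in the submitters' processing notes, with the circRNA caller and its filters not given in the sources used here. Per the file headers the unit is TPM, but the values as deposited by the authors are CPM: each column sums to 1000000 and 100% of listed values are whole multiples of 1 step, within 0.01 of a step, at 86.4 CPM per read in HD-SB and 10989 in the control. The step was the largest that fits, so the reads are inferred. The value 0.001, at 10 circRNAs in HD-SB and 1453 in the control, marks an unlisted circRNA and was left out of the search for the step. Depth was 11570 and 91 reads.

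Reads, spans, exon matches (GENCODE 29, exact length, same chromosome, coding principal transcript preferred) and Clopper-Pearson intervals at 95% were computed in Python 3.11.15 with pandas 2.3.3 and scipy 1.17.1. Read recovery, the size rule and exon matching were tested on simulated data. The size rule was simulated at high and equal depth in both libraries, so that test does not cover the shallow control. Read recovery was simulated from the HD-SB composition alone. With 1 library per group no test was made. Members, lists and the rule for named genes (all circRNAs of the 10 hosts, listed pathway genes with at least 10 HD-SB reads, and the 2 circRNAs next above and below the most abundant one) were chosen with earlier results of these data known. The search for miR-204-5p sites and the pairs with close ends were added after the values were seen. Alternatives covered the host rule, listing minimum, pseudocount, filter, scaling, fold and exon matching.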

Additional observations from a re-analysis of the deposited data

How the results depend on the processing

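The 15 circRNAs became 9 with a minimum of 5 reads and were within 1.5 times of 15 under the other 5 host and listing rules. Their share of HD-SB reads, 1.55%, was 0.697% without POLD1, 0.758% without its most abundant circRNA and 1.02% by number of circRNAs, by construction of fewer or equally weighted circRNAs, and stayed within its interval under the other 5. The median span of 4001 bp was 3021 with circBase identifiers alone, 1885 from 3 reads, 2041 from 5 reads, 4832 without POLD1, 634 weighted by reads and 4145 as a median of hosts. The 9 called at least 2-fold above the control were 3 with a pseudocount 4 times larger (296 of 797 in the table), 0 with 0.5 read in each library (4 of 797), 15 with no filter (1453 of 1485) and 4 in the top 25% of means (366 of 398), and within 1.5 times of 9 under the other 4. The 15 exon matches were 1 if starts were counted from 0 (26 of 1312 in the table). They were 15 within 1 bp (1255 of 1312) and 15 with coding transcripts alone (1214 of 1312). No paired analysis was possible because there is 1 library on each side. Depth limits the comparison of the libraries through the 91 reads of the control.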
